A study of Homo sapiens with 25 samples.

Results

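The genes described here are the core of the switch that turns on cyclin-dependent kinase 1 (CDK1) at the entry into mitosis. They are 10 genes chosen by their roles in that switch: the cyclins CCNA2, CCNB1, CCNB2 and CCNF, the kinase CDK1, the phosphatases CDC25A, CDC25B and CDC25C, and the inhibitory kinases WEE1 and PKMYT1. The choice was made with earlier results of these data known. All 10 were among the 28395 genes of the count table, and all 10 passed the filter on low counts that left 14658 genes for testing. The cells were A549, a widely used line from a human lung carcinoma, whose TRRAP protein carries a mini auxin-inducible degron (mAID). TRRAP is a large scaffold protein of histone acetyltransferase complexes, and the study's title links it to mitotic transcription by MMB, the complex of B-MYB with the MuvB core, and to the response to CHK1 inhibition. All cells had been blocked in thymidine (2 mM for 20 h) and released for 4 h. The 4 groups of 3 libraries were DMSO, prexasertib for 3 h, 5-Ph-IAA (1 µM for 6 h), and both compounds together. Prexasertib inhibits the checkpoint kinase CHK1, and 5-Ph-IAA is the auxin analog that sends the tagged TRRAP to the proteasome. The labels give the prexasertib dose in different units for the RNA and the chromatin samples, so no dose is printed. They also enter the genotype as WT beside a growth text that names the degron cells, and they do not say whether the tagged line is a clone. A group of tagged cells without the compound is present as DMSO, but the groups analysed here hold no untagged cells given 5-Ph-IAA, so an effect of the compound and an effect of TRRAP loss cannot be told apart here.

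CDK1 is active only when it is bound to a cyclin and free of inhibitory phosphates. WEE1 in the nucleus and PKMYT1 (MYT1) at membranes add those phosphates, and the CDC25 phosphatases remove them. CHK1 restrains the CDC25 phosphatases while DNA is being copied, and its inhibition lets CDK1 become active early. Most of these genes are transcribed in waves: E2F factors drive CDC25A and part of the CDK1 supply around S phase, whereas cyclin B, cyclin F and CDC25C belong to the late wave that the MuvB complexes and FOXM1 control through the cell cycle genes homology region (CHR).

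The libraries held 10830048 to 17789482 counts, and the 10 genes together took 0.189% to 0.192% of a library's counts in DMSO, 0.237% to 0.244% after prexasertib, 0.104% to 0.107% after 5-Ph-IAA and 0.152% to 0.156% after both. Levels below are CPM, each gene's share of a library's counts scaled by TMM, and gene length is not removed, so levels are compared between libraries and never between genes. Library numbers 1, 2 and 3 occur in every group, and the libraries numbered 3 stood apart from those numbered 1 and 2 in all 4 groups. Counts of called genes are therefore also given with the library number as a block and over the libraries numbered 1 and 2 alone. A549 is epithelial: KRT7, KRT8 and KRT18 averaged 3015, 3251 and 2114 CPM, while EPCAM averaged 0.807 CPM and the alveolar genes SFTPB and SFTPA1 had no count. The 10 markers of blood, vessel, stroma and nerve summed to 100.3 to 129 CPM in a library, with overlapping ranges in the 4 groups and DCN at 0. The highest of these markers were SNAP25, COL1A1 and CD68, which averaged 48.4, 31.7 and 30.6 CPM. TRRAP RNA, which cannot check a loss of protein, lay at 75.9 to 94.5 CPM in DMSO, 63.6 to 84.2 after prexasertib, 119 to 149.5 after 5-Ph-IAA and 99.7 to 141 after both. Less RNA per cell and fewer cells at the stage that makes it cannot be told apart in such bulk libraries.

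Promoter sequences come first, because the study's title names MMB, and MuvB complexes bind the CHR. The RefSeq table of GRCh38.p14 windows (250 bases before to 50 after an annotated start) gave the 14 windows of 7 genes used here, of which CDK1 has 2 and CDC25B and CDC25C have 4 each. Promoters of the other 3 genes were not used here. The letters searched on both strands were the CHR as TTTGAA or TTTAAA, the CHR variants CTTGAA or TTCGAA, the NF-Y box CCAAT, the E2F site as TTTCCCGC or TTTGGCGC or TTTCGCGC or TTTGCCGC, and the B-MYB site as TAACGG or CAACGG. The letters TTTAAA and TTCGAA read the same on both strands and were counted once, and no matches within a window overlapped. The variants were added after the sequences had been seen. In the whole table of 35116 windows, 24% held a CHR, 12.5% a variant, 34.6% an NF-Y box, 3.31% an E2F site and 8.51% a B-MYB site. Of the 7 genes, 5 had a CHR in at least 1 window (7 of 14 windows), 7 an NF-Y box (10 windows), 2 a variant, 2 an E2F site and 1 a B-MYB site. Windows of the same gene can overlap, so these window counts hold some matches more than once, such as the CHR of CDC25C. A match is a description of letters and not a site shown to be bound.

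The windows below are printed 5′ to 3′ on the gene's strand, with every match in capitals, so that the late cyclins can be set beside CDC25A. An NF-Y box on the opposite strand appears as ATTGG, and a CHR on the opposite strand as TTCAAA. The windows are CCNA2 at chr4:121823834-121824133 (minus strand), CCNB1 at chr5:69166900-69167199 (plus), CCNB2 at chr15:59104896-59105195 (plus), CDK1 at chr10:60778228-60778527 (plus), CDC25C at chr5:138331755-138332054 (minus) and CDC25A at chr3:48188368-48188667 (minus).
CCNA2: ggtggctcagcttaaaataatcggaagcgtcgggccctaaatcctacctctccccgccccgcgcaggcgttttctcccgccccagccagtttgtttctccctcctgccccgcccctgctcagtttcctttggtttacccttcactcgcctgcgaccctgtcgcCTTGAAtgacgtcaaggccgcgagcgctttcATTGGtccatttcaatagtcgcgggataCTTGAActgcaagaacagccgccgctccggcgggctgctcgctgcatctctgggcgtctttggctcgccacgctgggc
CCNB1: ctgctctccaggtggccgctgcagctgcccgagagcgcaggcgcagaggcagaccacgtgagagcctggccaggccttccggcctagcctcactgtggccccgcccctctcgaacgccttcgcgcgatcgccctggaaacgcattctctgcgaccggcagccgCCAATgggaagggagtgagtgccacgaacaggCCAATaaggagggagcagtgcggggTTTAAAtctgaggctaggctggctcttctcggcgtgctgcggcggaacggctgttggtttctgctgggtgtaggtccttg
CCNB2: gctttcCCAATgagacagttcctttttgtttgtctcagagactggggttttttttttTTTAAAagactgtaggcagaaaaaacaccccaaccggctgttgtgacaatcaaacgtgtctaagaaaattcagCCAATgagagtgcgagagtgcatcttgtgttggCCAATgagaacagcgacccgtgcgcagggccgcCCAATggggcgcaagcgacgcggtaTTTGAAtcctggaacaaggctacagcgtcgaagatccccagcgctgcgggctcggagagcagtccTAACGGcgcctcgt
CDK1: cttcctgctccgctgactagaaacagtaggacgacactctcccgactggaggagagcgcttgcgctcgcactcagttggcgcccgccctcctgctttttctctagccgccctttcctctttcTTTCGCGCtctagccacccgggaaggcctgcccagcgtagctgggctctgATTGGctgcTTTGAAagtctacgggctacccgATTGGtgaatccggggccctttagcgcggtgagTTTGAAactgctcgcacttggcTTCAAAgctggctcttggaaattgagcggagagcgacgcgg
CDC25C: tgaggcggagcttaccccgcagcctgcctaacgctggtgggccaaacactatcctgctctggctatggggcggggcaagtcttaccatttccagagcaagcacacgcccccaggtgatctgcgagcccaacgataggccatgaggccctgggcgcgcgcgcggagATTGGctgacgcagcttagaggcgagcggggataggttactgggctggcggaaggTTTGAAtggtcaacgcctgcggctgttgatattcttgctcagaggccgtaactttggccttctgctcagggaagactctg
CDC25A: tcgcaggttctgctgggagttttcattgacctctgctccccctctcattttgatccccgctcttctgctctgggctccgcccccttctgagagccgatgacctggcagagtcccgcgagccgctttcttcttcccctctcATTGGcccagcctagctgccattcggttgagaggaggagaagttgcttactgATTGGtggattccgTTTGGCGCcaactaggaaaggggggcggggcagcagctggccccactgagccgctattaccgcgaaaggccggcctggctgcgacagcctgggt

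Positions are counted from the annotated start, with the base before it as -1. CCNB1 had TTTAAA at -30 to -25 with NF-Y boxes at -55 to -51 and -87 to -83. CCNB2 had TTTGAA at -29 to -24 with NF-Y boxes at -54 to -50, -87 to -83 and -120 to -116. Farther from the start, CCNB2 also had TTTAAA at -193 to -188 and an NF-Y box at -244 to -240. CDC25C had TTTGAA at -30 to -25. Close to the start the B-type cyclins thus share a layout: the first base of the CHR there lay 25 bases after the first base of the nearest NF-Y box in both. Neighbouring boxes began 32 bases apart in CCNB1, and 33 apart among the boxes from -120 to -50 in CCNB2. The farthest CCNB2 box lay outside this layout, beginning 124 bases before the next box and 51 before the TTTAAA. In the CDK1 window the TTTGAA at -13 to -8 began 33 bases after an NF-Y box, and its boxes began 32 bases apart. The other CHR matches of that window, at -69 to -64 and 10 to 15, began 9 and 55 bases after a box. CCNA2 had the variant CTTGAA at -28 to -23, 28 bases after its NF-Y box, and again at -87 to -82, before that box. CDC25A had an E2F match at -44 to -37 and NF-Y boxes at -58 to -54 and -110 to -106, and its window held none of the searched CHR letters. CDK1 had an E2F match at -128 to -121, and the same bases lie in its other window, which overlaps this one. Of the 4 CDC25B windows, 1 held TTTAAA at 33 to 38, 1 held TTCGAA at -38 to -33 and 2 held an NF-Y box. Of the 4 CDC25C windows, 2 overlap and hold the same TTTGAA, at -30 to -25 in 1 and at 44 to 49 in the other. The remaining 2 CDC25C windows held no match.

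**Figure D1:**
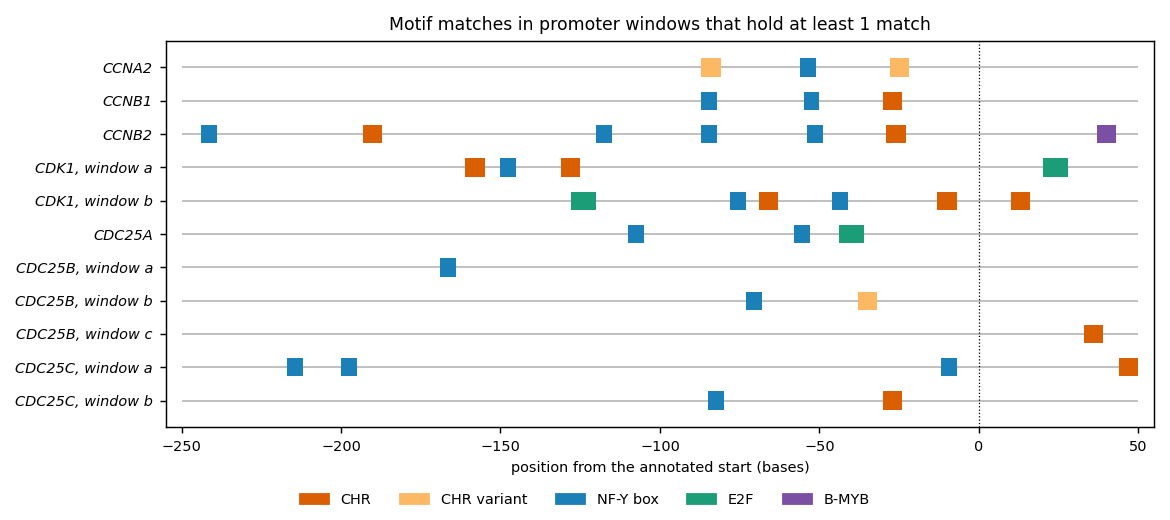
Motif matches in the promoter windows that hold at least 1 match, drawn by position from the annotated start in bases (x axis), with 1 row per window and colour by motif. CCNB1, CCNB2 and 1 window of CDC25C have a CHR between -30 and -24, and CDC25A has an E2F match and NF-Y boxes.

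Prexasertib raised part of the 10 genes and 5-Ph-IAA lowered all of them. With prexasertib alone, CCNA2, CCNB1, CCNB2, CDC25C and WEE1 rose and none of the 10 fell, against 2.36% of all genes tested called higher and 2.37% called lower. With 5-Ph-IAA alone all 10 fell, against 12.2% of all genes called lower and 9.65% called higher. In cells given prexasertib, adding 5-Ph-IAA lowered 9 of 10, against 10.4% of all genes lower and 7.85% higher. In cells given 5-Ph-IAA, adding prexasertib raised CCNB1, CCNB2, CCNF and WEE1 and lowered none, against 1.17% higher and 1.26% lower. With both compounds, 8 of 10 were below DMSO, against 14.2% of all genes lower and 11.8% higher, and the exceptions were CCNB1 and CCNB2. A call means an adjusted p under 0.05 in edgeR's quasi-likelihood test over all genes. The comparisons share control libraries, so they are set side by side and not counted as separate evidence.

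More calls were made with the library number as a block. With it, prexasertib alone raised 7 members and lowered 2 (CDK1 and PKMYT1), beside 8.37% and 9.77% of all genes. It left 10 of 10 lower with 5-Ph-IAA (all genes 23.6% lower, 19% higher) and made 10 of 10 lower with both compounds against prexasertib (19.9% lower, 17.2% higher). Members higher with both compounds against 5-Ph-IAA became 8 (7.8% higher, 7.7% lower), and members lower with both against DMSO became 9 (23.5% lower, 21.2% higher). Without the libraries numbered 3 and with no block, the counts in the same order of comparisons were 6 higher and 2 lower (all genes 7.23% and 7.03%), 10 lower (19.3%), 10 lower (17.5%), 8 higher and 1 lower (6.15% and 7.65%), and 9 lower (20.1%). With total counts as the only scaling, the median of all genes moved by 0.16 on the log2 scale in 5-Ph-IAA against DMSO, from 0.0058 to 0.16, and the all-gene calls of that comparison turned from 1414 higher and 1787 lower to 3018 higher and 986 lower. All 10 members were still lower there.

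**Figure D2:**
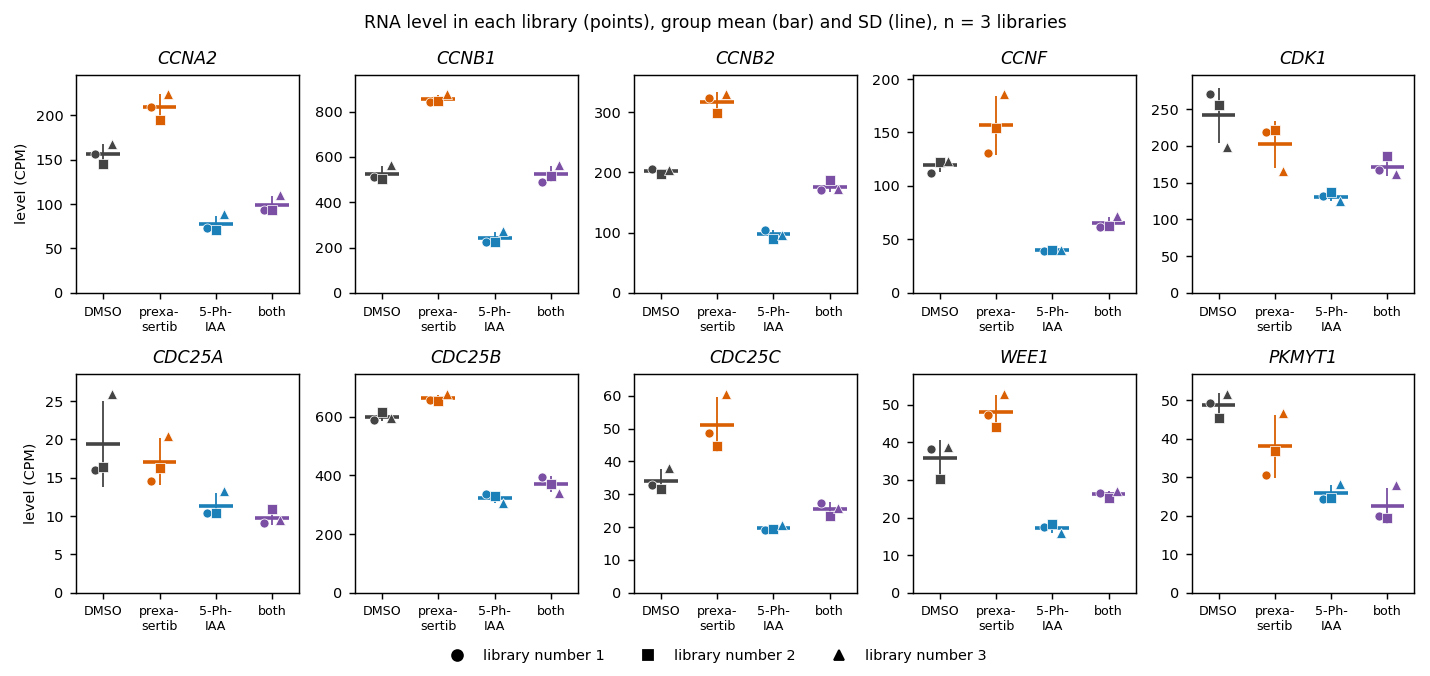
Level of each gene in CPM (y axis) in the 4 groups (x axis), with 1 point per library, the mean as a bar and the SD as a line, and the point shape giving the library number. All 10 genes are lower with 5-Ph-IAA than with DMSO in every library, and CCNB1 returns to the DMSO range when prexasertib is added.

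CCNB1 (chr5:69167150-69178245, hg38) encodes cyclin B1, the partner with which CDK1 drives entry into mitosis. Its libraries lay at 511, 503 and 564 CPM in DMSO, at 845, 846 and 877 with prexasertib, at 225, 226 and 273 with 5-Ph-IAA, and at 492, 517 and 563 with both. Prexasertib put every library above every DMSO library, 5-Ph-IAA put every library below, and the libraries given both overlapped those given DMSO. CCNB1 rose by 0.70 on the log2 scale with prexasertib (SE 0.087, adjusted p = 0.000512), a 1.63-fold difference, and fell by 1.12 with 5-Ph-IAA (SE 0.088, adjusted p = 2.39e-06). In cells given 5-Ph-IAA prexasertib raised it by 1.12 (SE 0.088, adjusted p = 2.91e-05), which is 2.17-fold. With both compounds it stood at 99.6% of its DMSO mean, a log2 difference of -0.0055 with a 95% interval from -0.19 to 0.18 (adjusted p = 0.972), whose sign changes with the scaling. Against prexasertib alone, both compounds together gave a log2 fold change of -0.71 (SE 0.087, adjusted p = 0.000113).

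CCNB2 (chr15:59105146-59125045) encodes cyclin B2, another B-type partner of CDK1. It lay at 206, 198 and 203 CPM in DMSO, 324, 299 and 329.8 with prexasertib, 105, 90.0 and 96.4 with 5-Ph-IAA, and 170.4, 188 and 172 with both. No groups overlapped. CCNB2 rose by 0.65 with prexasertib (SE 0.072, adjusted p = 0.00019), fell by 1.06 with 5-Ph-IAA (SE 0.073, adjusted p = 1.12e-06) and was raised by 0.86 by prexasertib in cells given 5-Ph-IAA (SE 0.073, adjusted p = 3.52e-05). With both compounds its log2 difference from DMSO was -0.20 (SE 0.072, adjusted p = 0.0615), and it was called lower with the library-number block (0.0036), with DESeq2 (0.0489) and over the libraries numbered 1 and 2 alone (0.0373).

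CCNA2 (chr4:121816444-121823883) encodes cyclin A2, which works with CDK2 in S phase and with CDK1 in G2. It lay at 157, 145 and 168 CPM in DMSO, 209, 194 and 223 with prexasertib, 73.3, 70.9 and 88.3 with 5-Ph-IAA, and 93.4, 93.8 and 110.5 with both. The 4 groups were separate, with prexasertib highest and 5-Ph-IAA lowest. It rose by 0.42 with prexasertib (SE 0.098, adjusted p = 0.0266) and fell by 1.02 with 5-Ph-IAA (SE 0.1, adjusted p = 1.44e-05). The difference of 0.36 made by prexasertib on top of 5-Ph-IAA was not called (adjusted p = 0.0825), and was called with the block (adjusted p = 7.52e-06), with DESeq2 (0.0273), over the libraries numbered 1 and 2 alone (0.000376) and without 5-Ph-IAA library 3 (0.0206). The prexasertib call was lost without DMSO library 1 (adjusted p = 0.0868), DMSO library 2 (0.108), prexasertib library 1 (0.0764) or prexasertib library 3 (0.0596).

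CCNF (chr16:2429447-2458854) encodes cyclin F, which binds no CDK and serves as the substrate receptor of an SCF ubiquitin ligase. It lay at 112, 123 and 124 CPM in DMSO, 131, 154 and 186 with prexasertib, 39.3, 40.3 and 40.3 with 5-Ph-IAA, and 62.0, 62.5 and 71.5 with both. Its 5-Ph-IAA libraries held 33.4% of the DMSO mean, the lowest share among the 10 genes, and the log2 fold change was -1.58 (SE 0.11, adjusted p = 1.19e-06). In cells given prexasertib, 5-Ph-IAA lowered it by a log2 fold change of -1.26 (SE 0.11, adjusted p = 6.14e-06). Prexasertib raised it by 0.71 in cells given 5-Ph-IAA (SE 0.11, adjusted p = 0.00336). Prexasertib alone gave 0.39 (SE 0.11, adjusted p = 0.0524), which missed the threshold although no libraries overlapped. It was called higher with the block (1.22e-05), DESeq2 (0.0172), RLE scaling factors (0.0475), no filter on low counts (0.0459), a stricter filter (0.0438) and the libraries numbered 1 and 2 alone (0.00785). The call was also gained without prexasertib library 1 (0.0157) or library 3 of the compounds together (0.0403).

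CDK1 (chr10:60778331-60794852) encodes the kinase itself, and its libraries lay at 270.2, 256 and 199 CPM in DMSO, 219, 222 and 166 with prexasertib, 131, 137 and 125 with 5-Ph-IAA, and 167, 186 and 162 with both. Library 3 was the lowest of its group in all 4 groups. The DMSO and prexasertib libraries overlapped, and so did those given prexasertib and those given both. Prexasertib alone gave a log2 fold change of -0.26 (SE 0.12, adjusted p = 0.301). With the block CDK1 was called lower (adjusted p = 0.00179), and also over the libraries numbered 1 and 2 alone (0.00395). CDK1 fell by 0.88 with 5-Ph-IAA (SE 0.12, adjusted p = 0.000302). It was the 1 member that 5-Ph-IAA did not lower by the main test in cells given prexasertib (log2 fold change -0.23, SE 0.12, adjusted p = 0.218). CDK1 was called lower there with the block (0.00349), over the libraries numbered 1 and 2 alone (0.000117) and without prexasertib library 3 (0.0472). With both compounds it stood at 71.1% of its DMSO mean (log2 fold change -0.49, SE 0.12, adjusted p = 0.0103), a call lost without DMSO library 1 (0.0504) or with total counts as the only scaling (0.0508).

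Of the phosphatases that activate CDK1, CDC25C was the one called with prexasertib, and differences between the genes were not tested. CDC25C (chr5:138285265-138338355), which acts at the G2/M transition, lay at 32.8, 31.7 and 38.1 CPM in DMSO, 48.5, 44.6 and 60.5 with prexasertib, 19.2, 19.4 and 20.6 with 5-Ph-IAA, and 27.5, 23.4 and 25.8 with both. It rose by 0.58 with prexasertib (SE 0.12, adjusted p = 0.0121), and that call was lost without DMSO library 1 (0.0598) or DMSO library 2 (0.0571). It fell by 0.79 with 5-Ph-IAA (SE 0.12, adjusted p = 0.00049) and with both compounds its log2 fold change from DMSO was -0.42 (SE 0.12, adjusted p = 0.0207). That last call was lost without DMSO library 3 (0.0826), without library 2 of the compounds together (0.0853), or with total counts as the only scaling (0.0522).

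CDC25B (chr20:3786951-3806115), the phosphatase held to start CDK1 activation in the cytoplasm, lay at 589.6, 616 and 595 CPM in DMSO, 658, 654 and 677 with prexasertib, 337, 331 and 304 with 5-Ph-IAA, and 396, 371 and 341 with both. The groups were separate, but the prexasertib difference was small, at 0.14 on the log2 scale (SE 0.07, adjusted p = 0.315, with the block 0.0389). Its fall with 5-Ph-IAA was 0.89 (SE 0.071, adjusted p = 2.79e-06), and both compounds left it at 61.5% of its DMSO mean.

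CDC25A (chr3:48157146-48188417), which acts from the G1/S transition onward and is the phosphatase whose protein CHK1 sends for destruction, lay at 16.0, 16.5 and 25.9 CPM in DMSO, 14.5, 16.3 and 20.5 with prexasertib, 10.4, 10.4 and 13.3 with 5-Ph-IAA, and 9.06, 10.9 and 9.42 with both. Prexasertib and DMSO libraries overlapped, as did those given 5-Ph-IAA and those given both. The log2 fold change with prexasertib was -0.19, with a 95% interval from -0.60 to 0.23 (adjusted p = 0.715). CDC25A fell by 0.78 with 5-Ph-IAA (SE 0.2, adjusted p = 0.0117), a call lost without DMSO library 3 (0.055) or 5-Ph-IAA library 2 (0.0533). With both compounds it stood at 50.4% of its DMSO mean (log2 fold change -0.99, SE 0.2, adjusted p = 0.00264). Its DMSO libraries had the widest spread of the 10 genes, at a coefficient of variation of 28.8%.

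Of the inhibitory kinases, WEE1 rose with prexasertib and PKMYT1 was not called. WEE1 (chr11:9573670-9589985) lay at 38.4, 30.2 and 38.7 CPM in DMSO, 47.3, 44.0 and 52.8 with prexasertib, 17.6, 18.2 and 15.9 with 5-Ph-IAA, and 26.4, 25.2 and 27.1 with both. The 4 groups were separate. WEE1 rose by 0.43 with prexasertib (SE 0.11, adjusted p = 0.0414), fell by 1.05 with 5-Ph-IAA (SE 0.11, adjusted p = 3.47e-05) and was raised by 0.60 by prexasertib in cells given 5-Ph-IAA (SE 0.11, adjusted p = 0.011). The prexasertib call is near the threshold. It was lost without any of the prexasertib libraries 1, 2 and 3 (adjusted p = 0.11, 0.0632 and 0.118), without DMSO library 1 or 2 (0.0699 and 0.145), without 5-Ph-IAA library 1 (0.0555), and without library 1 or 2 of the compounds together (0.0616 and 0.0594). It was also lost with total counts as the only scaling (0.0534), with no filter on low counts (0.0513) and in a fit of the DMSO and prexasertib libraries alone (0.102). With the block its adjusted p was 0.000409.

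PKMYT1 (chr16:2972808-2980446) lay at 49.2, 45.4 and 51.6 CPM in DMSO, 30.6, 36.8 and 46.7 with prexasertib, 24.4, 24.7 and 28.3 with 5-Ph-IAA, and 20.0, 19.5 and 28.0 with both. The prexasertib libraries reached into the DMSO range. Prexasertib alone gave a log2 fold change of -0.36 (SE 0.16, adjusted p = 0.243), called lower with the block (0.00194) and over the libraries numbered 1 and 2 alone (0.000867). PKMYT1 fell by 0.92 with 5-Ph-IAA (SE 0.16, adjusted p = 0.00115), and both compounds left it at 46.1% of its DMSO mean, the lowest share of the 10 genes in that group.

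**Figure D3:**
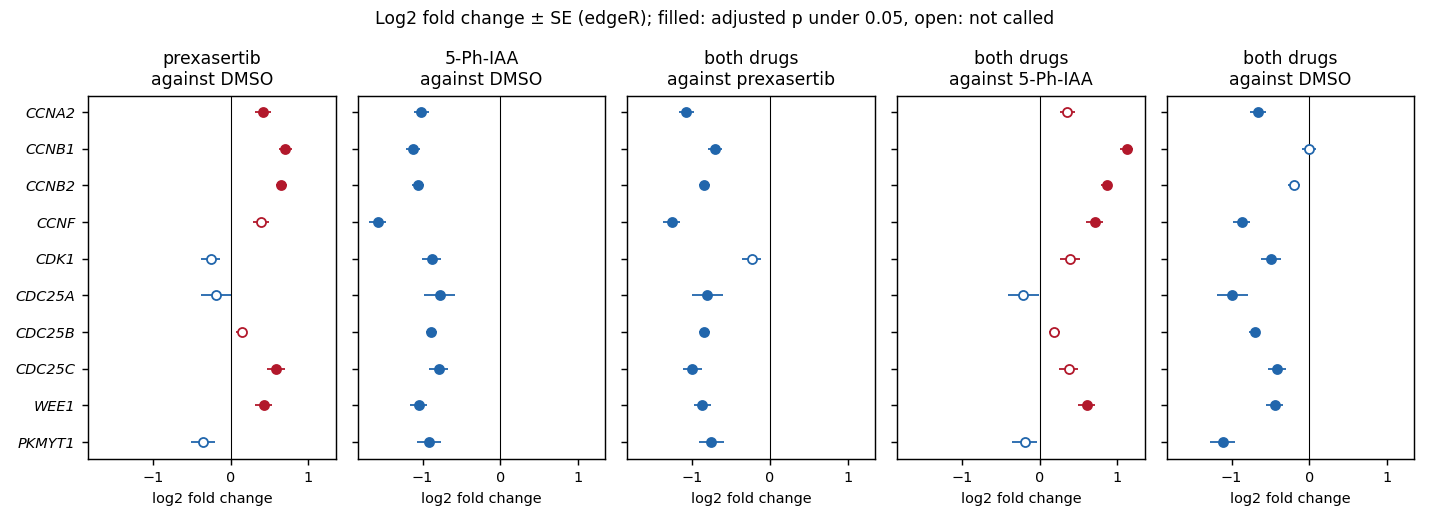
Log2 fold change (x axis) of each gene in the 5 comparisons between groups, with the SE as a bar, from edgeR; filled points passed an adjusted p under 0.05. All 10 points lie below 0 for 5-Ph-IAA against DMSO, while prexasertib against DMSO has points on both sides of 0.

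The order of the groups divided the 10 genes. Prexasertib was highest, then DMSO, then both compounds, then 5-Ph-IAA in CCNA2, CCNB1, CCNB2, CCNF, CDC25B, CDC25C and WEE1, and neighbouring groups did not overlap in any of these except DMSO and both compounds in CCNB1. CDK1 was highest in DMSO, then prexasertib, both compounds and 5-Ph-IAA, and only the last pair was separate. CDC25A and PKMYT1 were highest in DMSO and lowest with both compounds, and in these the step from prexasertib to 5-Ph-IAA was the only separate one. How many of all genes separate in these ways was not counted. The order and the separation are therefore a description, not a result particular to these genes. The median log2 fold change of the 10 genes was 0.40 with prexasertib, -0.97 with 5-Ph-IAA, -0.85 for both compounds against prexasertib, 0.38 for both against 5-Ph-IAA and -0.58 for both against DMSO, where the medians of all genes were -0.0037, 0.0058, 0.015, 0.011 and 0.01.

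The response to prexasertib was then compared between cells with and without 5-Ph-IAA, as an interaction. No gene was called in edgeR (0% higher and 0% lower), where 519 of all genes and 2 members had an unadjusted p under 0.05, DESeq2 called 5 genes higher and 0 lower and limma-voom called 0. With the library-number block 0.375% of all genes were higher and 0.28% lower, and CDK1 and CCNB1 were among the former. For CDK1 the prexasertib difference within a library number was -0.31, -0.21 and -0.26 without 5-Ph-IAA and 0.35, 0.45 and 0.38 with it. All 3 numbers therefore changed sign, and the interaction was 0.65 (SE 0.087, adjusted p = 2.36e-05). For CCNB1 the differences were 0.73, 0.75 and 0.64 without 5-Ph-IAA and 1.13, 1.19 and 1.04 with it, and the interaction was 0.42 (SE 0.071, adjusted p = 0.000717). The other 8 members were not called in the interaction with the block, with values from -0.21 for CDC25C to 0.32 for CCNF. Without the libraries numbered 3 and with no block, the interaction was 0.63 for CDK1 (adjusted p = 6.56e-05) and 0.40 for CCNB1 (0.00411), where 0.614% of all genes were higher and 0.641% lower.

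**Figure D4:**
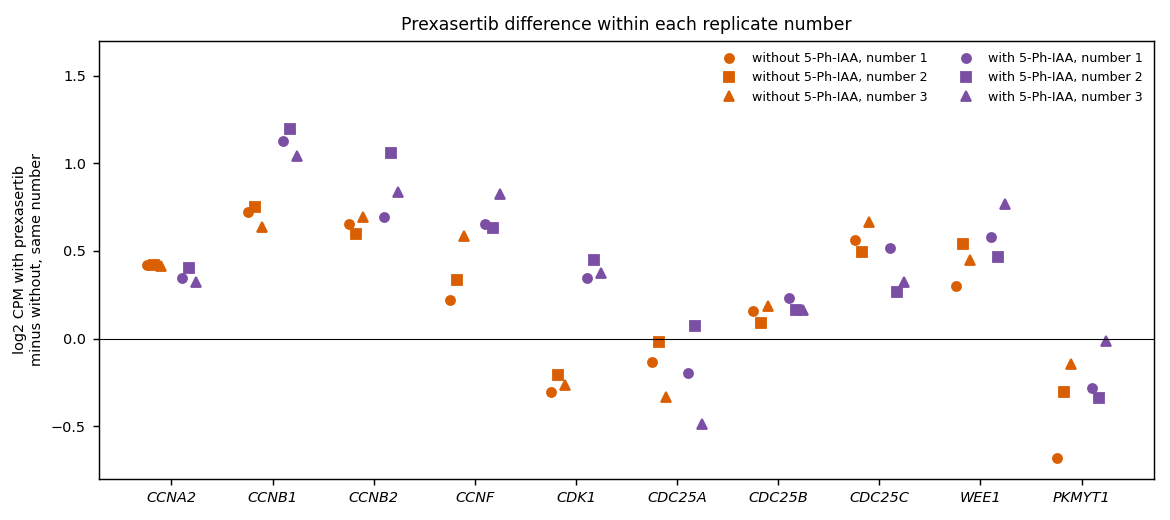
Difference in log2 CPM made by prexasertib within each library number (y axis) for the 10 genes (x axis), without 5-Ph-IAA in orange and with it in purple, and point shape giving the number. The CDK1 points lie at -0.31 to -0.21 in the absence of 5-Ph-IAA, and in its presence at 0.35 to 0.45.

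Ratios of counts within a library do not depend on how libraries are scaled, and they are given here as a description, with no test. The log2 ratio of CCNB1 to CDK1 was 0.92, 0.97 and 1.5 in DMSO and 1.95, 1.93 and 2.40 with prexasertib. It was 0.77, 0.72 and 1.13 with 5-Ph-IAA and 1.56, 1.47 and 1.80 with both. Libraries given prexasertib were thus above those not given it in both arms, with no overlap, and the means differed by 0.96 without 5-Ph-IAA and by 0.73 in its presence. The log2 ratio of CCNB1 to WEE1 averaged 3.89 in DMSO, 4.16 after prexasertib, 3.80 after 5-Ph-IAA and 4.32 after both, with overlap between DMSO (3.73 to 4.06) and prexasertib (4.05 to 4.27). Within each library number it was higher with prexasertib than with DMSO, by 0.42, 0.21 and 0.19, and higher with both compounds than with 5-Ph-IAA, by 0.54, 0.73 and 0.27. The log2 ratio of CDC25C to WEE1 lay between -0.23 and 0.38 in all 12 libraries. The log2 ratio of CDC25A to CDC25B averaged -4.98 in DMSO, -5.29 after prexasertib, -4.84 after 5-Ph-IAA and -5.24 after both, and DMSO and prexasertib libraries overlapped. Within a number it was lower with prexasertib than with DMSO in 3 of 3 (-0.30, -0.10 and -0.52), and lower with both compounds than with 5-Ph-IAA in 3 of 3 (-0.43, -0.093 and -0.66).

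**Figure D5:**
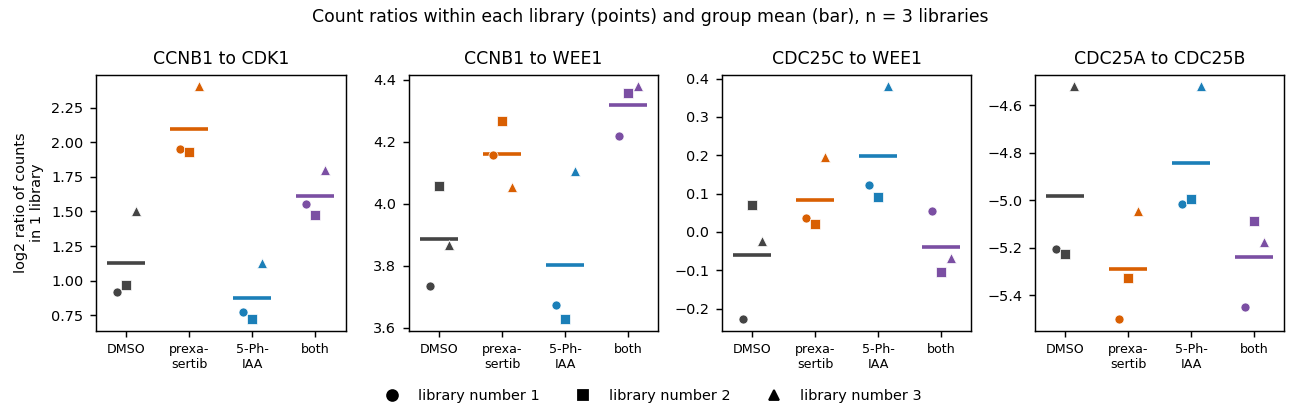
Log2 ratio of counts within each library (y axis) for 4 gene pairs in the 4 groups (x axis), with 1 point per library and the mean as a bar. CCNB1 to CDK1 lies at 1.93 to 2.40 with prexasertib and at 0.92 to 1.5 with DMSO.

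The likeness of patterns was measured as the root mean square difference of log2 CPM over the 12 libraries, after each gene was centred on its own mean. Among the 10 genes the closest pair was CCNA2 and CDC25C, at 0.142, followed by CCNB1 and CCNB2 at 0.144 and CDC25C and WEE1 at 0.146. The farthest was CCNB1 and PKMYT1, at 0.625. CDC25A and PKMYT1, which share their order of groups, differed by 0.220. Outside the 10 genes, among 12549 candidates, CCNB1 was most like FAM83D (0.116), KPNA2 (0.116), CKS2 (0.130), PLK1 (0.134) and KIF2C (0.154). WEE1 was most like KIF23 (0.110), NDE1 (0.115), INCENP (0.121), KIF4A (0.128) and TPX2 (0.134). CDC25A was most like MTFR2 (0.139), CAMKK2 (0.143), B4GALT2 (0.151), MCM4 (0.153) and TANGO6 (0.153).

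Around the switch, 73 further genes of the pathway were read, all 73 of them tested. In the order prexasertib, 5-Ph-IAA, both against prexasertib, both against 5-Ph-IAA and both against DMSO, 10, 2, 2, 9 and 7 were higher and 7, 29, 31, 4 and 28 lower. Of all genes, 2.36%, 9.65%, 7.85%, 1.17% and 11.8% were higher and 2.37%, 12.2%, 10.4%, 1.26% and 14.2% lower in that order, and these shares are also the background of the counts by role below. The pathway's share of genes called higher was thus under that of all genes with 5-Ph-IAA and with both against prexasertib (2.74% each) and with both against DMSO (9.59%). With the block the pathway counts were 16, 5, 8, 14 and 7 higher and 13, 42, 42, 14 and 37 lower. Of all genes, the block called 8.37%, 19%, 17.2%, 7.8% and 21.2% higher and 9.77%, 23.6%, 19.9%, 7.7% and 23.5% lower. In both against 5-Ph-IAA the blocked pathway counts are 19.2% in each direction, beside 7.8% and 7.7% of all genes. The libraries numbered 1 and 2 alone gave 14, 5, 6, 14 and 6 higher and 12, 36, 37, 12 and 35 lower, beside 7.23%, 16.8%, 13.2%, 6.15% and 17.4% of all genes higher and 7.03%, 19.3%, 17.5%, 7.65% and 20.1% lower. PLK1, the kinase that activates CDC25C and marks WEE1 for destruction, averaged 337 ± 23.4 CPM in DMSO (SD, n = 3), 481 ± 50.8 after prexasertib, 139 ± 9.75 after 5-Ph-IAA and 266 ± 9.46 after both. It rose by 0.51 with prexasertib (adjusted p = 0.0038), fell by 1.28 with 5-Ph-IAA (9.88e-07) and was raised by 0.94 by prexasertib on top of 5-Ph-IAA (4.69e-05). Of the 15 genes that control CDC25 and WEE1, 4 rose and 1 fell with prexasertib, led by BORA, the cofactor for activation of PLK1 (log2 fold change 1.19, SE 0.13), and by BTRC, the ubiquitin ligase adaptor that recognises CDC25A and WEE1 (-0.51, SE 0.14). The block and the libraries numbered 1 and 2 alone each gave 5 higher and 2 lower. With 5-Ph-IAA 7 of the 15 fell (10 with the block, and 10 beside 1 higher over numbers 1 and 2), and SFN, a 14-3-3 protein that retains CDK1 complexes, fell by 1.00 (SE 0.066).

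CDK1's small subunit gene CKS2 rose by 0.56 with prexasertib (SE 0.074) and fell by 0.94 with 5-Ph-IAA (SE 0.075), with 196 ± 3.95 CPM in DMSO and 191 ± 13.9 with both (SD, n = 3). It was the 1 of 5 genes for other partners and subunits that rose with prexasertib, where the block called 2 and the libraries numbered 1 and 2 called 1. In the same group CCNA1 (cyclin A1) rose by 1.52 and CDK2 fell by 0.53 with both compounds against DMSO (SE 0.44 and 0.11), and the CCNA1 call was lost without DMSO library 2 or 3 (adjusted p = 0.0755 and 0.0745) or library 2 or 3 of the compounds together (0.056 and 0.0544). CCNA1 lay near the floor, with 165 counts over all libraries. It averaged 0.629 ± 0.304 CPM in DMSO and 1.84 ± 0.179 with both (SD, n = 3). Between these lay the means for 5-Ph-IAA by itself (0.950) and for prexasertib by itself (0.684). CCNA1 may thus have passed the filter on low counts mainly through the libraries in which it was then called higher. Which libraries carried it past that filter was not tested. Of 8 cyclin destruction genes, 2 rose and 1 fell with prexasertib and 5 fell with 5-Ph-IAA. The block and the libraries numbered 1 and 2 alone each gave 4 higher and 1 lower with prexasertib and 7 lower with 5-Ph-IAA. CDC20, an activator of the anaphase-promoting complex that ends cyclin B, rose by 0.98 with prexasertib (SE 0.086), and FBXO5, an inhibitor of that complex, fell by 0.87 (SE 0.14). UBE2C, its ubiquitin-conjugating enzyme, fell by 1.33 with 5-Ph-IAA (SE 0.074) and was raised by 0.93 by prexasertib on top of it (SE 0.073). Among 6 substrates of cyclin F, NUSAP1 rose by 0.51 with prexasertib (SE 0.06) and CDC6 fell by 0.84 (SE 0.12). NUSAP1 fell by 1.00 with 5-Ph-IAA (SE 0.061), and RRM2 was the most clearly lower with both compounds (-2.03, SE 0.14, against DMSO), where 5 of the 6 fell (5 with the block and 6 over numbers 1 and 2). RRM2 was already low in cells given only 5-Ph-IAA, at 125 ± 22.1 CPM (SD, n = 3), against 113 ± 16.2 for the pair of compounds. Its DMSO mean was 462 ± 53.4, and prexasertib by itself left it at 367 ± 34.0. EXO1, a nuclease on that list, fell by 1.02 with both compounds against 5-Ph-IAA (SE 0.2). That call was lost without 5-Ph-IAA library 2 (adjusted p = 0.0523) or library 1 or 2 of the compounds together (0.0868 and 0.0796). EXO1 was also low in cells given only prexasertib, at 27.0 ± 4.73 CPM beside a DMSO mean of 64.6 ± 13.7. Its means were 43.6 ± 5.63 for 5-Ph-IAA by itself and 21.4 ± 5.66 for the pair of compounds.

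Of 13 CHK1 pathway genes none was called higher with prexasertib, and 2 fell, among them CLSPN, the adaptor through which ATR activates CHK1 (-0.69, SE 0.1). The block gave 1 higher and 3 lower, and the libraries numbered 1 and 2 alone gave 0 and 3. CHEK1 itself had a log2 fold change of -0.095 with prexasertib (adjusted p = 0.677), fell by 0.32 with 5-Ph-IAA (0.0189) and fell by 0.66 with both compounds against DMSO (0.000192). Its call with 5-Ph-IAA was lost at a log2 fold change of -0.16 with total counts as the only scaling (adjusted p = 0.199), at -0.21 over the libraries numbered 1 and 2 alone (0.093) and at -0.31 in a fit of the DMSO and 5-Ph-IAA libraries alone (0.0615). It was also lost without DMSO library 3 (0.0742) and without 5-Ph-IAA library 2 (0.0761) or 3 (0.0572). The adaptor TOPBP1 was the other of the 2 CHK1 pathway genes that fell with prexasertib (-0.45, SE 0.074, adjusted p = 0.00365). TOPBP1 fell by 0.28 with 5-Ph-IAA (SE 0.073) and by 0.77 with both against DMSO (SE 0.074), where RAD17, a clamp loader, rose by 0.41 (SE 0.12). The TOPBP1 call with 5-Ph-IAA was lost at -0.12 with total counts as the only scaling (adjusted p = 0.304), in a fit of the DMSO and 5-Ph-IAA libraries alone (0.0629) and without DMSO library 1 (0.0523). The RAD17 call was lost without DMSO library 3 (0.0723) or library 2 of the compounds together (0.0731). Of 3 CDK inhibitor genes, CDKN1A rose by 0.42 with prexasertib (adjusted p = 0.0111) and by 0.60 with both compounds against DMSO (0.000215). With 5-Ph-IAA, CDKN1A had a log2 fold change of -0.16 (0.193), and was called lower at that size with the block (0.0041) and at -0.15 over the libraries numbered 1 and 2 alone (0.0153). CDKN1B fell by 0.73 with 5-Ph-IAA (0.000549). Of 8 Greatwall and PP2A-B55 genes, 3 fell with 5-Ph-IAA, among them PPP2R2A (-0.45, SE 0.083), and none was called with prexasertib. The block gave 5 lower with 5-Ph-IAA and 2 lower with prexasertib. The libraries numbered 1 and 2 alone gave 3 lower with 5-Ph-IAA, and 1 higher and 1 lower with prexasertib. In the CDK-activating kinase 2 of 3 genes were higher with 5-Ph-IAA, also with the block and over numbers 1 and 2, with MNAT1 at 0.38 (SE 0.089). CCNH was higher by 0.32 with both compounds against DMSO (SE 0.085), a call lost without library 2 of the compounds together (adjusted p = 0.0529). Among the pathway genes named, the prexasertib calls of BTRC, LIN54 and NFYB were lost without 9, 8 and 6 of the 12 libraries, with adjusted p up to 0.195, 0.182 and 0.144. A fit of the DMSO and prexasertib libraries alone also lost them (0.12, 0.103 and 0.102), as did RLE factors for BTRC (0.0537) and total counts as the only scaling for NFYB (0.0654). The CDKN1A call with prexasertib was lost without prexasertib library 1 (0.0641).

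Of 12 genes for the transcription of mitotic genes, 1 rose and 1 fell with prexasertib (NFYB at 0.41, SE 0.099, and LIN54 at -0.60, SE 0.15), and 3 fell with 5-Ph-IAA. The block and the libraries numbered 1 and 2 alone each gave 1 higher and 2 lower with prexasertib and 5 lower with 5-Ph-IAA. FOXM1 averaged 247 ± 22.0 CPM in DMSO, 269.5 ± 26.5 after prexasertib, 184 ± 7.50 after 5-Ph-IAA and 193 ± 17.1 after both (SD, n = 3), and it fell by 0.43 with 5-Ph-IAA (adjusted p = 0.00479). MYBL2, the B-MYB gene, had log2 fold changes of -0.10 with prexasertib (0.845) and -0.42 with 5-Ph-IAA (0.0918), and neither was called. With the block MYBL2 was called lower with 5-Ph-IAA (log2 fold change -0.41, adjusted p = 3.88e-08). It was called there too over the libraries numbered 1 and 2 alone (-0.37, 4.79e-05) and without 5-Ph-IAA library 3 (0.0448). It averaged 159.7 ± 27.6 CPM in DMSO and 119.9 ± 18.1 with 5-Ph-IAA (SD, n = 3). RBBP4, a MuvB core subunit, fell by 0.51 with both compounds against DMSO (SE 0.096).

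Some of these rows are less certain than others, because the strand setting of the counts is not given in the sources used here. CCNA2 overlaps EXOSC9, CDC25C overlaps FAM53C and PKMYT1 overlaps PAQR4. CDC25C drew 4964 counts in all and FAM53C 17238, and FAM53C rose by 0.65 with 5-Ph-IAA (SE 0.094, adjusted p = 0.000311) while CDC25C fell. With prexasertib both rose, FAM53C by 0.53 (SE 0.094, adjusted p = 0.00578) and CDC25C by 0.58. PKMYT1 drew 5200 counts and PAQR4 2476, and PAQR4 fell by 1.56 with 5-Ph-IAA (SE 0.18, adjusted p = 5.19e-05). With prexasertib PAQR4 had a log2 fold change of -0.34 (adjusted p = 0.324), beside -0.36 for PKMYT1. CCNA2 drew 20520 counts and EXOSC9 4209, and EXOSC9 had a log2 fold change of -0.094 with 5-Ph-IAA (adjusted p = 0.583). With prexasertib EXOSC9 had -0.27 (adjusted p = 0.206), where CCNA2 rose. How much either gene of a pair adds to the other's count was not tested.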

How the data were processed

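Poly(A) RNA was sequenced as directional libraries, per the labels' protocols. The authors deposited whole-number read counts for each gene, not normalized, in 12 columns for the 12 libraries. Per the submitters' processing notes, the build was hg38 and the tools included featureCounts 2.0.8 and limma 3.58.1. Which aligner, gene annotation and strand setting were used is not given in the sources. Gene numbers were matched to symbols for 27745 of 28395 rows, and the 650 unmatched rows held 0.0324% of the counts. The 13 CUT&RUN samples are not analysed here.

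From the counts, edgeR 4.0.16 in R 4.3.3 kept 14658 genes (filterByExpr, minimum count 10, minimum total 15), scaled the libraries by TMM factors (0.925 to 0.978 without 5-Ph-IAA, 1.02 to 1.1 with it) and fitted a robust quasi-likelihood model with 1 term per group to all 12 libraries. Benjamini-Hochberg adjustment covered all genes tested, and a call needed an adjusted p under 0.05. Adjusted p-values are edgeR's unless another tool is named. The SE is the size of the log2 fold change divided by the square root of F, and a prior count of 2 went into log2 CPM. Biological variation between libraries had a coefficient of 12.8%. Marker levels used library size alone. DESeq2 1.42.0, limma-voom 3.58.1, other scalings and filters, the comparison's groups alone, and leaving out each library were the alternatives.

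The labels do not say whether libraries came from separate cultures, so a p-value here covers only the spread among these libraries, which may be technical. What the library numbers in the titles mark is not stated. Deviations from the group means correlated in all 18 same-number pairs, at 0.22 to 0.633. Number 3 libraries correlated with number 1 or 2 libraries of other groups at -0.326 to -0.503. The deviations within a group cancel out in sum. These negative values, and positive ones among numbers 1 and 2, thus partly follow from the likeness of the number 3 libraries. Numbers 1 and 2 did not separate from each other. DMSO library 2, for example, correlated at 0.341 with library 1 of the compounds together and at 0.282 with library 2. Pairing of numbers 1 and 2 across groups therefore rests on the titles alone. Hence blocked values are given beside the counts, and beside many of the named genes whose call they change. In both compounds against 5-Ph-IAA, the block also called CDK1 (log2 fold change 0.39, adjusted p = 1.14e-05), CDC25B (0.19, 0.0081) and CDC25C (0.37, 0.0051) higher. It called CHEK1 lower there (-0.34, 0.0062). For both against prexasertib the block called MYBL2 lower (-0.35, 2.54e-06) and CDKN1A higher (0.18, 0.00112). Against DMSO it called MYBL2 lower with both (-0.45, 5.11e-09).

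The 10 members, the 73 pathway genes and the tests were chosen with earlier results of these data known. Every member is named. Of the pathway genes, those named are the called gene with the smallest adjusted p in each role, comparison and direction, and CHEK1, PLK1, FOXM1, MYBL2 and CDKN1A, with repeats left out. Likeness was ranked for CCNB1, CDC25A and WEE1 among genes whose mean log2 CPM was 1 or more. Promoter sequences are RefSeq's, and their motifs were found by exact letters. Some promoter sequence is not reported here.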

Additional observations from a re-analysis of the deposited data

Results flagged for a closer look

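The effect of prexasertib differed between cells with and without 5-Ph-IAA for 2 members in the edgeR interaction test with the library-number block. The interaction of CDK1 was 0.65 on the log2 scale (adjusted p = 2.36e-05): prexasertib libraries were below their same-number DMSO libraries in 3 of 3 numbers, and above their same-number 5-Ph-IAA libraries in 3 of 3. The interaction of CCNB1 was 0.42 (adjusted p = 0.000717), with prexasertib libraries above those of the same number without it in 3 of 3 numbers in both arms. Over all 12 libraries without the block the adjusted p was 1 for both genes. Over the libraries numbered 1 and 2 alone, with no block, it was 6.56e-05 for CDK1 and 0.00411 for CCNB1.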

How the results depend on the processing

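Of 60 member values (10 genes in 6 comparisons), 60 kept direction and side of the threshold with limma-voom, 58 with RLE factors, with no filter and with a stricter filter (minimum count 50), 56 with DESeq2 and with total counts as the only scaling, and 48 with the replicate block and with only the libraries numbered 1 and 2, where the other 12 were gained calls. Restricting the fit to the groups compared kept 49 of 50, and the exception was WEE1 with prexasertib (adjusted p = 0.102). CCNB1 with both compounds against DMSO, main value -0.0055, turned to 0.099 with total counts, 0.00028 with RLE factors, 0.00025 with DESeq2 and 0.020 with the stricter filter. Leaving out 1 library at a time gave 2 to 6 members higher with prexasertib. It moved the log2 values across 0 for CCNB1 with both against DMSO (-0.053 to 0.048), CDC25A with prexasertib (-0.33 to 0.075), MYBL2 with prexasertib (-0.26 to 0.050) and with both against 5-Ph-IAA (-0.16 to 0.089), and FOXM1 with both against 5-Ph-IAA (-0.011 to 0.12). In the interaction it did so for CCNA2 (-0.16 to 0.045), CDC25A (-0.29 to 0.11), CDC25B (-0.0079 to 0.083) and PKMYT1 (-0.038 to 0.33). For the log2 ratios it did so for CCNB1 to WEE1 in 5-Ph-IAA against DMSO (-0.23 to 0.004214), CDC25A to CDC25B in 5-Ph-IAA against DMSO (-0.022 to 0.37) and both against prexasertib (-0.051 to 0.18), and CDC25C to WEE1 in both against DMSO (-0.063 to 0.085). Causes were not tested.

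With the replicate block the members called were 2 lower with prexasertib, 8 higher with both against 5-Ph-IAA and 2 higher in the interaction, and the libraries numbered 1 and 2 alone gave 2, 8 and 2, with 1 lower for both against 5-Ph-IAA. Counts over all genes moved more. With the block, 1227 were higher and 1432 lower with prexasertib, 2780 and 3465 with 5-Ph-IAA, 2528 and 2913 for both against prexasertib, 1144 and 1128 for both against 5-Ph-IAA, 3111 and 3441 for both against DMSO, and 55 and 41 in the interaction. The libraries numbered 1 and 2 alone gave 1060 and 1030, 2459 and 2824, 1933 and 2559, 901 and 1121, and, in the interaction, 90 and 94. Total counts as the only scaling gave 3018 higher and 986 lower with 5-Ph-IAA (main 1414 and 1787), 2569 and 889 for both against prexasertib (main 1150 and 1524), 335 lower for both against 5-Ph-IAA (main 184), 2696 higher for both against DMSO (main 1725) and 1 higher in the interaction. DESeq2 gave 303 higher and 323 lower for both against 5-Ph-IAA (main 171 and 184) and 5 higher in the interaction. The groups compared alone gave 203 higher and 151 lower with prexasertib (main 346 and 347) and 64 lower for both against 5-Ph-IAA. Over the 12 fits that each lack a library, prexasertib had 184 to 386 higher and 125 to 401 lower, and the other ranges were 904 to 1620 higher with 5-Ph-IAA, 706 to 1242 higher for both against prexasertib, and 104 to 205 higher and 61 to 244 lower for both against 5-Ph-IAA.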
